A study of Danio rerio with 32 samples.

Results

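The complement genes described here were followed in the zebrafish larval liver across genotype, acetaminophen exposure and time: c3b.2 (ENSDARG00000001818), c4b (ENSDARG00000038424), bfb (ENSDARG00000005616), c8b (ENSDARG00000039517) and c7b (ENSDARG00000057121). They are 5 of 32519 genes in the count table and 5 of 63 complement genes that a list of symbols found there. The members were named with results of these same libraries in view, so their levels and fold changes are a description without a test. The other 58 complement genes came from a list made by role, and 38 of them had enough counts to be tested. That list was also chosen with earlier results of these data known, so its counts of called genes are not independent of that choice.

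RNA was sequenced from livers dissected from zebrafish larvae, with 20 livers pooled per library. The 8 groups of 4 libraries each crossed genotype (wild type, WT, or nrf2KO, here KO), treatment and time. WT and KO larvae were given either acetaminophen (APAP), an analgesic whose reactive metabolite injures hepatocytes, or dimethyl sulfoxide (DMSO), the control, and livers were taken at 12 h or 24 h. Nrf2 is a stress-responsive transcription factor, and many of its target genes encode enzymes that neutralise oxidants and reactive chemicals. The labels do not give the APAP dose, the age of the larvae, the mutated nrf2 copy, or whether WT larvae were siblings of KO larvae. A difference between genotypes therefore cannot be told apart from a difference between fish lines.

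Complement is a cascade of plasma proteins, made largely by hepatocytes, that tags and lyses microbes and damaged cells. The classical pathway starts from antibody complexes and the lectin pathway from sugars on microbes, and both cleave C4. The alternative pathway amplifies on surfaces through factor B. All routes lead to cleavage of C3, the central component, and then of C5. The terminal components then join stepwise into the membrane attack complex, a pore in the target membrane. Factor H and related proteins, C1 inhibitor and vitronectin restrain these steps in plasma.

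Total counts per library ran from 3971569 to 6298523. The median library had at least 1 count in 12096 genes, and 3 libraries had far fewer: KO APAP 12 h replicate 2 (4129 genes), WT DMSO 12 h replicate 2 (8815) and KO DMSO 12 h replicate 3 (9703). Hepatocyte marker genes (15 of 15 tested, none without counts in any group) carried summed levels between 33700 and 158000 CPM (counts relative to the library total) per library. The share of counts in the 58 other complement genes ran from 0.272% to 0.776%. Exocrine pancreas markers (15 listed) summed to between 8390 and 123000 CPM per library, and to between 12400 and 123000 within WT APAP 24 h alone. The livers were bulk tissue, so fewer hepatocytes, less RNA per hepatocyte and a changed share of other tissue cannot be told apart. Levels are CPM after TMM scaling (trimmed mean of M values), with n = 4 per group. Changes are log2 fold changes ± SE from an edgeR fit to all libraries. Calls rest on p-values adjusted by Benjamini and Hochberg over the 11384 genes tested, with a threshold of 0.05. CPM is not scaled by gene length, so levels are compared between libraries and not between genes.

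**Figure D1:**
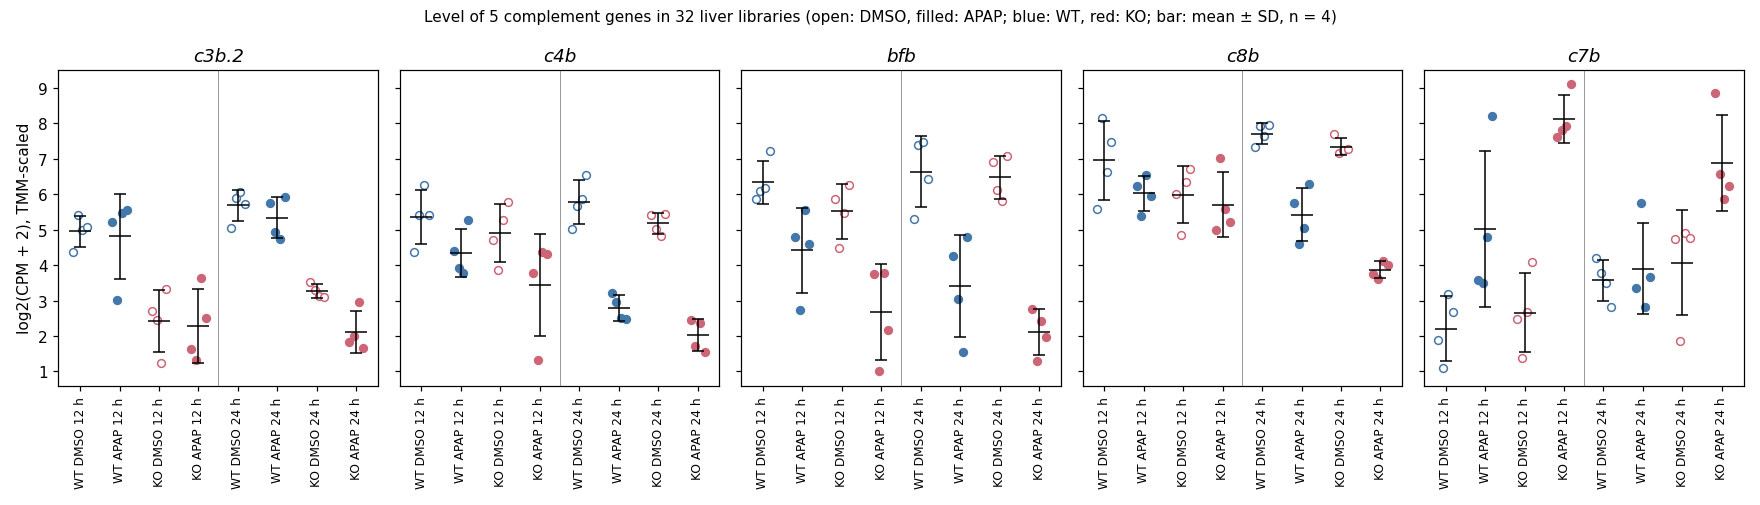
Level of each of the 5 genes in every library, as log2(CPM + 2) after TMM scaling, with open circles for DMSO, filled circles for APAP, blue for WT and red for KO, and bars for mean ± SD (n = 4). The 4 KO groups of c3b.2 sit low with either treatment, c4b, bfb and c8b are lowest in KO APAP 24 h, and c7b is highest in KO APAP 12 h.

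The members did not share 1 pattern. In c4b, bfb and c8b every APAP library at 24 h was below every DMSO library of its genotype. At 12 h this held for bfb, while the treatments overlapped for c4b and c8b in both genotypes. In c7b the APAP libraries were higher in both genotypes at 12 h and in KO at 24 h, with the highest levels in KO, while the treatments overlapped in WT at 24 h. In c3b.2 the KO libraries were low whether or not APAP was given. The share of all tested genes whose libraries separate in these ways was not counted. Nothing is therefore read from such separation, here or below.

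The classical and lectin pathway member is c4b, a copy of C4, whose cleavage product helps build the C3-cleaving enzyme. At 12 h its level in WT was 18.7, 40.5, 74.1 and 40.6 CPM under DMSO and 19.1, 13.1, 11.8 and 36.6 CPM under APAP, for replicates 1 to 4. In KO at 12 h the same libraries held 23.9, 12.6, 36.7 and 53.4 CPM under DMSO and 11.7, 0.488, 18.6 and 17.95 CPM under APAP. The treatment groups overlapped at 12 h in both genotypes, and the lowest value belonged to KO APAP replicate 2, the library with the fewest genes. At 24 h, WT libraries held 30.5, 48.6, 56.3 and 90.8 CPM under DMSO and 7.23, 5.80, 3.74 and 3.54 CPM under APAP. KO libraries at 24 h held 40.8, 30.8, 26.4 and 41.3 CPM under DMSO and 3.48, 1.31, 3.14 and 0.945 CPM under APAP. Every APAP library at 24 h was below every DMSO library of its genotype, and the KO APAP libraries were also all below the WT APAP libraries.

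The log2 fold change of c4b, APAP against DMSO, was -1.11 ± 0.57 in WT and -1.37 ± 0.57 in KO at 12 h. At 24 h it was -3.47 ± 0.62 in WT and -3.95 ± 0.65 in KO. Between the times, c4b differed little under DMSO (0.38 ± 0.56 in WT and 0.14 ± 0.56 in KO, 24 h against 12 h). Under APAP it was lower at 24 h than at 12 h, with -1.98 ± 0.59 in WT and -2.44 ± 0.62 in KO. The KO response minus the WT response was -0.26 ± 0.79 at 12 h and -0.48 ± 0.82 at 24 h, less than its own error at both times.

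The second C4 copy, c4 (ENSDARG00000015065), was scarce, with 83 counts over the 4 WT DMSO libraries at 24 h and 2 counts under APAP. It fell in WT at 24 h (adjusted p = 0.0496), with an APAP to DMSO ratio of 0.0252 (95% counting interval 0.00301 to 0.0941). In KO at 24 h c4 fell from 33 counts to 0 (adjusted p = 0.0189), at least 11.8-fold lower with a floor of 3 counts over the group. The ratio at 12 h was 0.0277 (0.00331 to 0.102) in WT and 0.0472 (0.00559 to 0.178) in KO, with adjusted p of 0.0919 and 0.0963. Floors and counting intervals cover counting error only. The C1 protease gene c1r (ENSDARG00000100248), which acts upstream of C4, fell in KO at 12 h (-3.16 ± 0.89, adjusted p = 0.0269) and at 24 h (-3.80 ± 0.93, adjusted p = 0.00825). In WT its values were -2.80 ± 0.86 and -2.85 ± 0.85, with adjusted p of 0.0951 and 0.0550. In the lectin pathway, the protease gene MASP1 (ENSDARG00000068726) fell at 24 h in WT (-2.48 ± 0.67, adjusted p = 0.0270) and in KO (-2.75 ± 0.68, adjusted p = 0.00825). MASP2 (ENSDARG00000007988), the protease that cleaves C4 in mammals, fell in KO (-2.16 ± 0.64, adjusted p = 0.0353), beside -2.07 ± 0.64 in WT (adjusted p = 0.0654).

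The alternative pathway member is bfb, a copy of factor B, the protease subunit of that pathway's C3-cleaving enzyme. At 12 h its level in WT was 56.03, 66.7, 70.4 and 147 CPM under DMSO and 25.9, 4.65, 45.1 and 22.4 CPM under APAP. In KO at 12 h it was 56.8, 20.3, 42.02 and 74.5 CPM under DMSO and 11.4, 0, 11.8 and 2.51 CPM under APAP. All APAP libraries were below all DMSO libraries of their genotype. The library at 0 was KO APAP replicate 2, where a count of 0 allows up to 0.730 CPM. At 24 h the WT libraries held 37.3, 164, 174.5 and 84.2 CPM under DMSO and 17.1, 6.203, 0.935 and 25.5 CPM under APAP. The KO libraries held 118, 67.9, 54.1 and 133 CPM under DMSO and 4.83, 0.438, 3.38 and 1.89 CPM under APAP. The groups again did not overlap, and KO APAP 24 h had the lowest mean of the 8 groups (2.63 ± 1.89 CPM, SD, n = 4).

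For bfb the log2 fold change under APAP was -1.79 ± 0.72 in WT and -2.90 ± 0.76 in KO at 12 h, and -3.22 ± 0.76 and -5.12 ± 0.85 at 24 h. KO minus WT, the difference of responses was -1.11 ± 1.00 at 12 h and -1.90 ± 1.03 at 24 h. Under DMSO the genotypes overlapped at both times (-0.81 ± 0.70 and -0.31 ± 0.69, KO against WT).

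In the RefSeq annotation of zebrafish (assembly GRCz12tu), bfb lies between cfb and cfbl, other factor B genes. The copy cfb (ENSDARG00000055278), the tested alternative pathway gene with the highest mean CPM, also fell at 24 h, with values of -1.25 ± 0.34 in WT (adjusted p = 0.0267) and -1.92 ± 0.34 in KO (adjusted p = 0.000182). At 12 h it was not called, with -0.32 ± 0.33 and -0.73 ± 0.33 (adjusted p = 0.881 and 0.202). At 24 h the WT level was 564 ± 82.0 CPM with DMSO and 238 ± 52.6 CPM with APAP (SD, n = 4), and the KO level was 468 ± 58.1 and 123 ± 51.2 CPM. Reads that fit more than 1 copy equally well would be lost to all of them; between 1.54% and 3.23% of a library's reads had no unique alignment.

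C3 is represented by c3b.2, which was lower in KO with either treatment. WT libraries at 12 h held 18.6, 40.8, 29.6 and 31.8 CPM under DMSO and 35.2, 6.13, 42.03 and 45.5 CPM under APAP. KO libraries at 12 h held 4.52, 3.46, 0.356 and 8.04 CPM under DMSO and 1.099, 0.488, 10.5 and 3.67 CPM under APAP. At 12 h the genotypes did not overlap under DMSO, while under APAP the lowest WT library, replicate 2, lay inside the KO range. At 24 h the WT values were 31.3, 57.2, 64.6 and 51.4 CPM under DMSO and 52.2, 28.8, 24.9 and 58.1 CPM under APAP. The KO values were 9.54, 7.79, 6.80 and 6.57 CPM under DMSO and 1.55, 1.97, 5.79 and 1.18 CPM under APAP. At 24 h each KO library was below each WT library with either treatment.

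KO against WT, the log2 fold change of c3b.2 was -2.87 ± 0.67 under DMSO and -3.03 ± 0.68 under APAP at 12 h. At 24 h it was -2.73 ± 0.66 and -3.96 ± 0.71. The 12 h value under APAP was -4.15 without KO APAP replicate 3, whose 10.5 CPM was the highest of its group. APAP against DMSO, c3b.2 differed by 0.09 ± 0.61 and -0.32 ± 0.61 in WT at 12 h and 24 h. In KO the values were -0.07 ± 0.65 and -1.55 ± 0.68, and the groups separated at 24 h. The 12 h value in KO was -1.23 without KO APAP replicate 3, and the 24 h value was -2.26 without KO APAP 24 h replicate 3. The order of the 8 group means put the 4 WT groups first, from 51.1 ± 14.3 CPM (SD, n = 4) in WT DMSO 24 h to 30.2 ± 9.10 in WT DMSO 12 h, and neighbours among them overlapped. The 4 KO groups followed, from 7.67 ± 1.35 to 2.62 ± 2.14, again with overlap between neighbours.

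**Figure D2:**
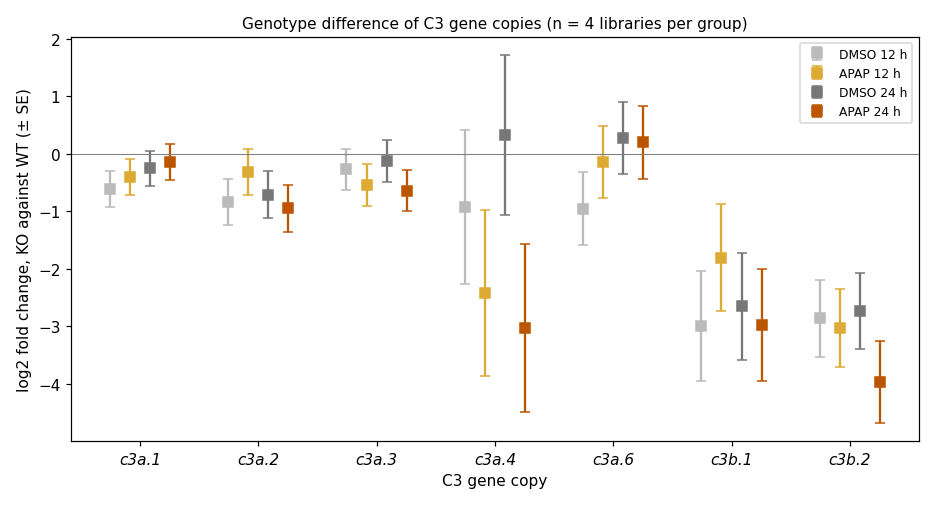
Log2 fold change ± SE, KO against WT, of the 7 tested C3 gene copies in DMSO and APAP livers at 12 h and 24 h (n = 4 libraries per group). The 4 values of c3b.2 lie between -2.73 and -3.96 and those of c3b.1 between -1.81 and -2.99, while those of c3a.1 lie between -0.15 and -0.62.

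Beside c3b.2 in the same annotation lies another C3 copy, c3b.1 (ENSDARG00000093068). Its level was low: 5.81 ± 3.08 CPM (SD, n = 4) in WT DMSO 12 h and 0.689 ± 0.656 in KO DMSO 12 h, and 13.1 ± 1.73 and 2.04 ± 0.904 at 24 h. KO against WT, c3b.1 had log2 fold changes of -2.99 ± 0.96 at 12 h and -2.66 ± 0.93 at 24 h under DMSO. With APAP they were -1.81 ± 0.94 and -2.98 ± 0.97, and no comparison passed (adjusted p between 0.156 and 0.363). Over the 32 libraries c3b.2 and c3b.1 had a Pearson correlation of 0.875 in log2(CPM + 2), and 0.621 after each group's mean was removed. These points share genotype and library, and reads that fit both copies equally well would be lost to both.

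Of the other tested C3 copies, none was called between genotypes. The copy with the highest mean CPM, c3a.1 (ENSDARG00000012694), had KO against WT values of -0.62 ± 0.31 and -0.26 ± 0.31 under DMSO (adjusted p = 0.780 and 1). Under APAP it was 0.57 ± 0.31 and 0.77 ± 0.31 from the DMSO level at 12 h, and 0.31 ± 0.31 and 0.41 ± 0.31 at 24 h, in WT and KO (adjusted p between 0.147 and 0.845). In contrast c3a.2 (ENSDARG00000087359) fell at 24 h in WT (-1.44 ± 0.41, adjusted p = 0.0409) and in KO (-1.68 ± 0.42, adjusted p = 0.00907). The gene c5 (ENSDARG00000021004), whose product starts the terminal pathway, fell at 24 h, with -1.52 ± 0.32 in WT (adjusted p = 0.00263) and -1.91 ± 0.32 in KO (adjusted p = 8.22e-05).

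In the terminal pathway, c8b encodes the beta subunit of C8, which binds the growing complex, and c7b a copy of C7, which anchors it in the membrane. At 12 h c8b in WT was at 45.8, 284, 97.9 and 177 CPM under DMSO and 73.2, 39.9, 91.7 and 59.8 CPM under APAP. In KO at 12 h it was at 62.2, 26.95, 80.0 and 103 CPM under DMSO and 29.8, 128, 46.3 and 35.1 CPM under APAP. The groups overlapped, and the highest value in each of WT DMSO and KO APAP came from replicate 2, both among the 3 libraries with fewest genes. At 24 h, WT libraries held 159, 240.5, 200 and 245 CPM under DMSO and 52.2, 22.2, 30.8 and 76.8 CPM under APAP. KO libraries held 204, 142, 149.8 and 152 CPM under DMSO and 11.4, 10.3, 15.4 and 14.2 CPM under APAP. At 24 h the treatments did not overlap in either genotype, and all KO APAP libraries were below all WT APAP libraries.

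For c8b the log2 fold change under APAP was -1.19 ± 0.45 in WT and -0.19 ± 0.45 in KO at 12 h, which became -0.69 and -0.82 without the 3 libraries with fewest genes. At 24 h it was -2.21 ± 0.47 in WT and -3.66 ± 0.50 in KO. The difference of responses, KO minus WT, was 1.00 ± 0.63 at 12 h and -1.44 ± 0.64 at 24 h. The 12 h difference was negative without the 3 libraries with fewest genes. Under APAP at 24 h KO against WT was -1.82 ± 0.47, and under DMSO it was -0.38 ± 0.45. From 12 h to 24 h under DMSO c8b was higher in KO (1.25 ± 0.45), while in WT it differed by 0.48 ± 0.45 and the times overlapped. The WT DMSO libraries together held 4067 counts of c8b at 12 h and 4245 at 24 h. The TMM factors that multiply their library totals ran from 1.1 to 1.97 at 12 h and from 0.88 to 0.95 at 24 h. The KO DMSO libraries together held 1876 counts of c8b at 12 h and 2758 at 24 h. Their TMM factors ran from 1.13 to 1.60 at 12 h and from 0.70 to 0.90 at 24 h. Under APAP c8b differed between the times by -0.54 ± 0.45 in WT and -2.22 ± 0.47 in KO. Without KO APAP 12 h replicate 2 the last value was -1.52.

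The level of c7b varied most between libraries of 1 group. WT libraries at 12 h held 1.69, 0.153, 7.04 and 4.41 CPM under DMSO and 9.97, 9.30, 25.7 and 295 CPM under APAP. KO libraries at 12 h held 3.62, 0.596, 4.45 and 14.9 CPM under DMSO and 193, 223, 239.5 and 550.2 CPM under APAP. Each APAP library was above each DMSO library of its genotype at 12 h, and 3 of 4 WT APAP libraries were far below the KO APAP libraries. At 24 h, WT libraries held 16.3, 11.7, 9.29 and 4.997 CPM under DMSO and 8.23, 52.03, 5.05 and 10.6 CPM under APAP. KO libraries held 24.9, 1.60, 27.7 and 25.4 CPM under DMSO and 459, 93.9, 56.4 and 73.0 CPM under APAP. At 24 h the treatments overlapped in WT and did not overlap in KO.

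APAP against DMSO, the log2 fold change of c7b in WT was 4.69 ± 1.02 at 12 h, and it was 2.15 and not called without WT APAP replicate 4, the library at 295 CPM. In KO it was 5.68 ± 1.05 at 12 h, and between 5.17 and 6.70 with any 1 of these libraries left out. At 24 h it was 0.84 ± 0.89 in WT, and -0.42 without WT APAP replicate 2. The KO value at 24 h was 3.10 ± 0.93, and 1.92 without KO APAP replicate 1, the library at 459 CPM. The call of that value was lost without this library or any 1 of the 4 KO DMSO libraries, in 5 of 8 such fits. KO against WT under APAP, c7b differed by 1.83 ± 0.88 at 12 h and 3.17 ± 0.93 at 24 h. The first was 4.35 without WT APAP replicate 4, and the second 4.46 without WT APAP replicate 2 and 1.99 without KO APAP replicate 1. The difference of responses, KO minus WT, was 0.98 ± 1.27 at 12 h and 2.26 ± 1.25 at 24 h, and it was 3.52 at 12 h without WT APAP replicate 4 and 3.53 at 24 h without WT APAP replicate 2. By mean level KO APAP 12 h came first (301.5 ± 167 CPM, SD, n = 4), then KO APAP 24 h (171 ± 193) and WT APAP 12 h (85.0 ± 140), with overlap between all neighbours in the order.

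Some markers of bile duct cells (13 listed, 9 tested), all of them keratins, rose in APAP comparisons where c7b was called higher. At 12 h the keratin genes krt8 and krt18a.1 rose in both genotypes and krt18b in KO, at 24 h krt8 and krt18a.1 rose in KO, and in WT at 24 h edgeR called none of the 9, with 1 at an unadjusted p under 0.05. From 12 h to 24 h under DMSO, where c7b was not called, krt8 and krt18a.1 also rose in WT and krt8 in KO. The medians of the 9 under APAP were 0.47 and 0.21 at 12 h in WT and KO and 0.21 in KO at 24 h, with 4, 4 and 3 of 9 below 0. Without the keratins the medians of the 6 tested were -0.07, -0.13 and -0.33 in the same order. The summed level of the list at 12 h ran from 536 to 836 CPM under DMSO and 1260 to 2070 under APAP in WT, and from 411 to 729 and 1370 to 1560 in KO. At 24 h it ran from 1380 to 1800 and 1390 to 1940 in WT, and from 718 to 1170 and 1350 to 2060 in KO. Without the keratins the sums overlapped at 12 h, at 170 to 322 CPM under DMSO and 254 to 333 under APAP in WT and 149 to 278 and 18.3 to 288 in KO, and at 24 h in KO they were 251 to 340 and 202 to 245. Of the 13 genes, krt18a.2 had no count in 7 of the 8 groups. In 5 groups 1 listed copy of SOX9 had none, while the other listed copy had counts. Summed macrophage markers in KO at 24 h were also higher under APAP, at 96.5 to 211 CPM against 67.2 to 90.2, though edgeR called none of the 9 tested there, with 1 at an unadjusted p under 0.05. The median of these 9 was 0.17, with 4 of them below 0. At 12 h the macrophage sums overlapped, at 63.9 to 75.9 CPM under DMSO and 65.5 to 125 under APAP in WT. In KO at 12 h they were 64.8 to 110 and 73.4 to 167. The medians of the 9 at 12 h were 0.88 in WT and 0.34 in KO, with 2 and 3 below 0. Of the 22 listed macrophage genes, 11 had no count in KO DMSO 24 h and 8 none in KO APAP 24 h. The part of these markers in the level of c7b was not tested.

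**Figure D3:**
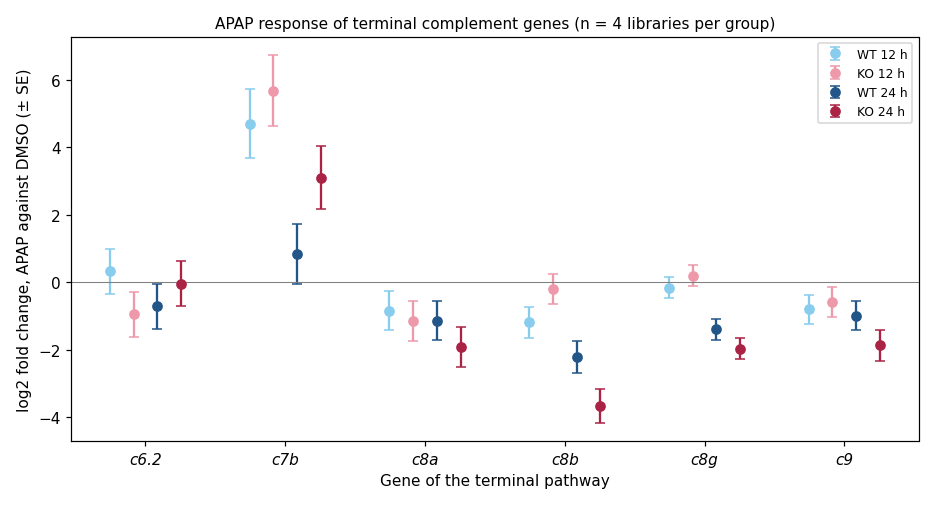
Log2 fold change ± SE, APAP against DMSO, of the 6 tested genes of the terminal pathway in WT and KO livers at 12 h and 24 h (n = 4 libraries per group). The values of c7b lie between 0.84 and 5.68, those of c8b between -0.19 and -3.66, and those of c6.2, c8a, c8g and c9 between 0.32 and -1.97.

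The other tested genes of the terminal pathway did not share the higher level of c7b under APAP. Other listed copies of C7 and C6, c7a (ENSDARG00000042172) and c6.1 (ENSDARG00000093052), had too few counts to be tested. The next gene to c7b in the annotation is c6.2 (ENSDARG00000057113), a copy of C6, which had values from -0.96 ± 0.68 to 0.32 ± 0.67 in the 4 APAP comparisons (adjusted p between 0.460 and 0.995). C9 forms the wall of the pore, and c9 (ENSDARG00000016319) was the tested terminal gene with the highest mean CPM. It fell in KO at 24 h (-1.87 ± 0.45, adjusted p = 0.00684), from 1830 ± 158 CPM (SD, n = 4) to 499 ± 42.3. In WT at 24 h c9 had -0.99 ± 0.44 (adjusted p = 0.316).

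C8 is built from 3 chains, so c8b can be set beside the genes of the others. The gamma chain gene c8g (ENSDARG00000032098) fell at 24 h in WT (-1.39 ± 0.31, adjusted p = 0.00515) and in KO (-1.97 ± 0.32, adjusted p = 3.86e-05). The alpha chain gene c8a (ENSDARG00000039516), the neighbour of c8b, fell in KO (-1.93 ± 0.60, adjusted p = 0.0490) and had -1.14 ± 0.58 in WT (adjusted p = 0.441). After group means were removed, c8b correlated with c8g at 0.811 and with c8a at -0.031 over the 32 libraries. Over the libraries as they stand the values were 0.844 and 0.461, and the points share group and library.

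Of the complement genes other than the members, 10 in WT and 14 in KO fell under APAP at 24 h, among them genes of every role but the membrane regulators and receptors. In that role, with 3 genes tested, the medians at 24 h were 0.30 in WT and 0.59 in KO. In WT at 24 h, 10 of 38 fell and none rose, beside 1.55% of all tested genes lower and 1.64% higher. Their median log2 fold change was -1.19, against 0.02 over all tested genes, and 33 of 38 had a value below 0. In KO at 24 h, 14 fell and 1 rose, beside 3% lower and 2.05% higher, with a median of -1.26 against 0.00 over all genes, and 30 of 38 below 0. The count in WT at 24 h was 6 without WT DMSO replicate 3, 5 without WT APAP replicate 2 and 5 without WT APAP replicate 3. In KO at 24 h, 15 were called in either direction, and 12 or 13 with any 1 library left out. At 12 h, 2 fell and none rose in WT, beside 0.448% lower and 1.35% higher. In KO at 12 h, 3 fell and 1 rose, beside 2.13% and 3.09%, while 1 fell and 0 rose when the fit held only the 2 groups compared. The medians at 12 h were -0.57 in WT and -0.64 in KO, against -0.07 and -0.30 over all tested genes. The WT count at 12 h was between 0 and 3 with 1 library left out: it was 0 without WT DMSO replicate 4 or WT APAP replicate 1 or 4, and 1 without WT DMSO replicate 2 or 3 or WT APAP replicate 2 or 3.

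**Figure D4:**
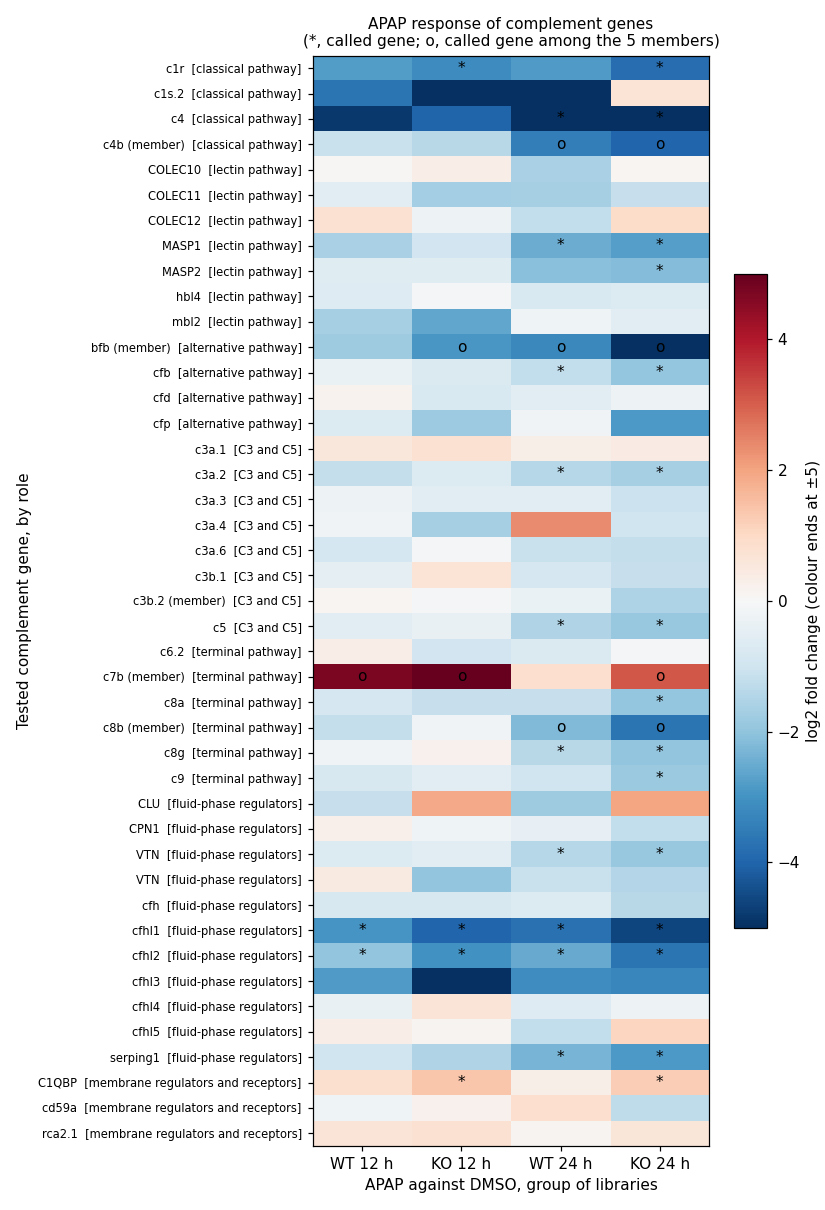
Log2 fold change, APAP against DMSO, of the 43 tested complement genes grouped by role (rows) in WT and KO livers at 12 h and 24 h (columns), with a star for a called gene and a circle for a called gene among the 5 members. Fitted values of genes with few counts, such as c4, depend on the prior count. Blue, lower under APAP, fills most of the 24 h columns, where 10 (WT) and 14 (KO) of the 38 other genes are called lower.

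Several plasma regulators fell with the pathway genes. The factor H-like genes cfhl1 (ENSDARG00000105212) and cfhl2 (ENSDARG00000103760) fell in all 4 APAP comparisons. For cfhl2 the values were -1.96 ± 0.49 and -3.03 ± 0.51 at 12 h and -2.54 ± 0.50 and -3.64 ± 0.54 at 24 h, in WT and KO (adjusted p between 1.03e-05 and 0.0210). For cfhl1 they were -2.97 ± 0.76, -3.98 ± 0.82, -3.74 ± 0.79 and -4.61 ± 0.88 in the same order (adjusted p between 0.000452 and 0.0246). The C1 inhibitor gene serping1 (ENSDARG00000058053) fell at 24 h, with -2.33 ± 0.65 in WT (adjusted p = 0.0341) and -2.86 ± 0.66 in KO (adjusted p = 0.00464). The vitronectin gene VTN (ENSDARG00000053831) fell at 24 h, with -1.44 ± 0.31 in WT (adjusted p = 0.00351) and -1.91 ± 0.31 in KO (adjusted p = 5.8e-05). The regulator with the highest mean CPM, cfhl4 (ENSDARG00000102456), was not called, with -0.66 ± 0.37 in WT and -0.25 ± 0.37 in KO at 24 h (adjusted p = 0.527 and 0.876). The 1 listed gene that rose was C1QBP (ENSDARG00000039887), listed as a C1q binding protein but best known as a mitochondrial matrix protein, by 1.39 ± 0.28 in KO at 12 h (adjusted p = 0.00108) and 1.23 ± 0.28 at 24 h (adjusted p = 0.00320).

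Hepatocyte markers moved in the same comparisons. At 24 h, 5 of 15 fell in WT and 6 of 15 in KO, with medians of -0.78 and -1.27, and none rose. All 15 had a value below 0 in both genotypes, with 11 in WT and 10 in KO at an unadjusted p under 0.05. At 12 h no hepatocyte marker was called by edgeR in either genotype, with 2 in WT and 1 in KO at an unadjusted p under 0.05. The summed hepatocyte marker level at 24 h ran from 90100 to 141000 CPM under DMSO and 64500 to 121000 under APAP in WT, and from 124000 to 158000 and 74500 to 123000 in KO. Red blood cell markers (8 listed, 6 tested) fell too at 24 h, 4 in WT and 3 in KO, with summed levels of 1400 to 3240 CPM under DMSO and 374 to 759 under APAP in WT, and 1260 to 2650 and 382 to 685 in KO. Of 15 exocrine pancreas markers, 3 fell in KO at 24 h, where the summed level was 49800 to 103000 CPM under DMSO and 23100 to 41000 under APAP. All 15 had a value below 0 there, with a median of -0.90. In WT at 24 h none of them was called, and their median was 0.02. Of 12 tested intestine markers, 2 fell in KO at 12 h (summed level 986 to 5910 CPM under DMSO and 398 to 818 under APAP) and 1 in KO at 24 h (803 to 1840 and 230 to 759). In KO at 24 h 2 of 9 epidermis markers (1140 to 1740 and 694 to 1420) and 1 of 12 mesenchymal markers also fell. Of 21 tested skeletal muscle markers, 1 rose in WT at 24 h, with summed levels of 3330 to 5890 and 4910 to 11000 CPM. Their median there was 0.88, with 6 of 21 below 0 and 10 at an unadjusted p under 0.05. In KO at 24 h none of the 21 was called, and their median was 0.15. The part of these changes in the levels of the complement genes was not tested.

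Counted by the same rule, 3 of the 5 members were called lower and none higher under APAP in WT at 24 h (c4b, bfb and c8b). In KO at 24 h the same 3 were called lower and c7b higher. At 12 h, c7b was called higher in both genotypes and bfb lower in KO. The 12 h calls of c7b in WT and bfb in KO were lost when the fit held only the 2 groups compared, and bfb was also not called without KO DMSO 12 h replicate 4 (-2.64) or KO APAP 12 h replicate 4 (-2.66). The background shares are those given above for the other complement genes, and since these libraries chose the members nothing is read from the counts.

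Between genotypes few complement genes were called. Under DMSO at 12 h, 1 member was called lower (c3b.2), beside 0.105% of all tested genes lower and 0.141% higher. That call held in 1 of 8 fits with 1 library left out, the fit without KO DMSO replicate 4, though the value stayed between -3.39 and -2.49. Under APAP at 12 h, c3b.2 was again the 1 member called, beside 0.949% lower and 1.28% higher. Both 12 h calls were lost with only the compared groups in the fit, at -2.88 and -3.05. At 24 h no member was called under DMSO by edgeR, beside 0.149% lower and 0.132% higher, with 1 at an unadjusted p under 0.05 and 1 called by DESeq2, c3b.2. Under APAP at 24 h, c3b.2 and c8b were called lower, beside 0.624% lower and 0.571% higher. The call of c8b held in 2 of 8 fits with 1 library left out, those without WT APAP replicate 2 or 3.

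Of the 38 other complement genes, edgeR called none between genotypes under DMSO at 12 h or 24 h or under APAP at 12 h. The numbers at an unadjusted p under 0.05 were 4, 3 and 5, and DESeq2 called 1, 2 and 1. Under APAP at 24 h, edgeR called 1 lower and 1 higher, with 13 of the 38 at an unadjusted p under 0.05 and 5 called by DESeq2. The factor H gene cfh (ENSDARG00000100442), the main plasma brake on the alternative pathway, was lower in KO (-2.35 ± 0.48, adjusted p = 0.00372), at 15.7 ± 3.69 CPM (SD, n = 4) against 80.1 ± 27.2 in WT. Its values were -1.33 ± 0.46 and -1.66 ± 0.46 under DMSO at 12 h and 24 h (adjusted p = 0.354 and 0.161). C1QBP was higher in KO by 1.06 ± 0.27 (adjusted p = 0.0369), and its call was absent in 6 of the 8 fits with 1 library left out. For the difference of APAP responses between genotypes, edgeR and DESeq2 called none of the 38 genes at either time, with 0 at 12 h and 2 at 24 h at an unadjusted p under 0.05. None of the members was called either, with 0 and 1 at an unadjusted p under 0.05 and none called by DESeq2. The share of all genes called in that difference was 0.0264% higher and 0.0439% lower at 12 h, and 0.0615% and 0.0439% at 24 h.

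Between 12 h and 24 h edgeR called 1 member, c8b, lower in KO under APAP, beside 0.36% of all tested genes lower and 0.0791% higher, and DESeq2 called 2, c8b and c4b. The edgeR call of c8b held in 3 of 8 fits with 1 library left out, being lost without KO APAP 12 h replicate 2 or any 1 of the KO APAP 24 h libraries, and it was lost with only the compared groups in the fit. Of the other complement genes, c8g rose in KO under DMSO (1.26 ± 0.31, adjusted p = 0.0150), beside 1.75% higher and 0.773% lower. In that comparison 13 of the 38 were at an unadjusted p under 0.05. edgeR called none of the 38 in WT under DMSO, WT under APAP or KO under APAP, with 4, 1 and 6 at an unadjusted p under 0.05 and 0, 0 and 2 called by DESeq2. The corresponding background was 1.21% higher and 0.835% lower in WT DMSO and 0.00878% and 0.0439% in WT APAP. Under DMSO the median of the 38 genes was 0.43 in WT and 0.36 in KO, against -0.06 and -0.08 over all tested genes. In the same comparisons the 15 hepatocyte markers had medians of 0.89 and 1.03, with 3 and 6 called higher. Exocrine pancreas markers (15 tested) had higher medians there, 1.42 and 1.62, with 0 and 6 called higher and 1 of 15 below 0 in each. Of these, 13 in each genotype were at an unadjusted p under 0.05. The part of these markers in the levels of the complement genes was not tested. The mean share of counts in the other complement genes was 0.616% at 12 h and 0.608% at 24 h in WT DMSO, and 0.451% and 0.541% in KO DMSO. With APAP this mean share was 0.388% at both times in WT, and 0.332% and 0.335% in KO. By this measure APAP was below DMSO at 12 h as well as at 24 h. The ranges of the treatments overlapped at 12 h in both genotypes and did not overlap at 24 h. Under APAP the median of the 38 genes was -0.11 and -0.22, against 0.01 and 0.21. Comparisons with a shared group are not independent of each other.

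The members also differed in which other genes they resembled most. Among 4427 other genes with a symbol and a mean log2 CPM of at least 3, likeness was measured by Pearson's r in log2(CPM + 2) over the 32 libraries, which share group and depth. For c4b the 3 most alike were cfhl2 (ENSDARG00000103760, r = 0.886), TST (ENSDARG00000093235, 0.882), encoding a mitochondrial sulfurtransferase, and DHRS9 (ENSDARG00000019260, 0.877), a dehydrogenase gene. For bfb they were RGN (ENSDARG00000098645, 0.923), encoding regucalcin, si:ch1073-126c3.2 (ENSDARG00000092858, 0.916) and DHRS9 (0.911). For c8b they were IGFBP2 (ENSDARG00000052470, 0.941), encoding an insulin-like growth factor binding protein, VTN (ENSDARG00000053831, 0.925) and GSTZ1 (ENSDARG00000027984, 0.919), a tyrosine catabolism gene. For c3b.2 they were SLC27A1 (ENSDARG00000104949, 0.877), a fatty acid transporter gene, zgc:171470 (ENSDARG00000057844, 0.873) and cyp2p9 (ENSDARG00000022631, 0.863). For c7b, those 3 included si:dkey-97i18.5 (ENSDARG00000090352, 0.899) and PFKFB3 (ENSDARG00000001953, 0.832), a glycolysis regulator gene.

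Among the members themselves, c4b and bfb were most alike (0.861 over the 32 libraries), then bfb and c8b (0.785) and c4b and c8b (0.735). The values of c7b with the other 4 were all negative, from -0.565 with bfb to -0.392 with c3b.2. After group means were removed c7b no longer ran opposite to them, with values from -0.025 with c8b to 0.393 with c4b. Within groups the highest value was 0.642, between c3b.2 and bfb.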

How the data were processed

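RNA was sequenced from 32 libraries of pooled larval livers. The values are unnormalized read counts for Ensembl genes, which the authors deposited as 1 table made with bcl2fastq, Trim Galore, HISAT2 and HTSeq on GRCz11, per the submitters' processing notes. Versions, annotation release and strand setting are not given in the sources used here. Rows without a gene stayed out. Of all reads, 66.3% to 78.7% were assigned to a gene, 11.8% to 21.0% were not aligned and 3.6% to 9.64% aligned to no feature. No 2 libraries of a group were copies (lowest chi-square per degree of freedom 15.5). Symbols came from a table that paired 29200 of 32519 IDs.

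Genes were kept with filterByExpr, scaled by TMM and fitted with 1 mean per group in edgeR 4.0.16 (R 4.3.3, limma 3.58.1). Quasi-likelihood F-tests, two-sided, gave 14 comparisons. The prior count was 0.125, and SEs were derived from each fold change and its F statistic (|log2 fold change| divided by the root of F). The code was tested on simulated data. Libraries are separate pools by label, with nothing on separate clutches, so p-values measure the spread between these pools. The alternatives were DESeq2 1.42.0, scaling by relative log expression, no filter, only the compared groups, the replicate number as a block, leaving out the 3 libraries with fewest genes or each library, and a pseudocount of 0.5 for likeness.

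The members and lists were chosen with earlier results of these data known. Named genes are the 5 members, every other complement gene called in at least 1 comparison, the tested gene with the highest mean CPM in each role, and the 3 genes most like each member (1 of those for c7b is not reported here). c3b.1, c6.2 and the hepatocyte, bile duct and other cell type markers were added beside them after values were seen. Listed symbols were matched without regard to case, allowing a copy suffix. Other genes caught by that rule (GCA among hepatocyte markers; HPD, CPD and CPE among acute phase genes) were removed after values were seen. Member sequences are not shown here.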

Additional observations from a re-analysis of the deposited data

Results flagged for a closer look

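In 40 groups of 4 libraries (5 members in 8 groups), Dixon's outlier test at its 95% level marked 8 libraries as far from the rest of their group. For normally distributed values chance flags about 1 in 20 groups. CPM need not be so distributed: in WT APAP 12 h the SD of c7b (140 CPM) exceeded its mean (85.0 CPM). The 40 groups also share the same 32 libraries, so nothing is read from the number marked. Of the 8, 5 concern c7b. Its level was 295 CPM in WT APAP 12 h replicate 4, against 9.30 to 25.7 in the other 3 libraries. It was 550.2 CPM in KO APAP 12 h replicate 4 (others 193 to 239.5), 52.03 CPM in WT APAP 24 h replicate 2 (others 5.05 to 10.6) and 459 CPM in KO APAP 24 h replicate 1 (others 56.4 to 93.9). In KO DMSO 24 h replicate 2 it was low, at 1.60 CPM (others 24.9 to 27.7).

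For c8b, KO APAP 12 h replicate 2 stood at 128 CPM (others 29.8 to 46.3), and this library also had the fewest genes detected, 4129, and no count of bfb. KO DMSO 24 h replicate 1 stood at 204 CPM for c8b (others 142 to 152). For bfb, WT DMSO 12 h replicate 4 stood at 147 CPM (others 56.03 to 70.4).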

How the results depend on the processing

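Of 1059 refitted log2 fold changes of members, 1026 moved by less than their SE and none that had been called changed sign. Of 212 refitted counts of other complement genes, 174 stayed within 1.5 times. Replicate numbers did not pair the libraries: deviations of same-numbered libraries correlated at 0.0124 on average (-0.24 to 0.209). With the replicate number as a block, c7b in WT APAP (24 h against 12 h) had -1.07 against -2.16, and 4 genes against 1 were called in KO DMSO (24 h against 12 h). With DESeq2 the counts were 5 in WT at 12 h, 1, 1, 2 and 5 for KO against WT (DMSO 12 h, APAP 12 h, DMSO 24 h, APAP 24 h) and 2 in KO APAP between the times. Without a filter they were 1 for KO against WT under APAP at 24 h and 6 in KO DMSO between the times. With only the compared groups they were 1 in KO at 12 h (against 4), 2 for KO against WT under DMSO at 24 h and 7 in KO DMSO between the times.

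Without the 3 libraries with fewest genes the counts were 5 in WT at 12 h, 1 and 4 for KO against WT at 24 h (DMSO, APAP) and 6 in KO DMSO between the times. The c8b values were then -0.69 (APAP in WT, 12 h), -0.82 (APAP in KO, 12 h), -0.82 (KO against WT, APAP 12 h), 0.99 (24 h against 12 h, WT DMSO), -1.52 (KO APAP) and -0.12 (difference of responses, 12 h). Of the 3 genes most like them, 0 stayed for c4b, 1 for c7b and 1 for c8b.

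With 1 library left out, counts ran from 0 to 3 (WT 12 h) and 5 to 10 (WT 24 h) under APAP, 0 to 2 and 1 to 2 (KO against WT, APAP 12 h and 24 h), and 0 to 1 and 0 to 2 between the times (WT DMSO, KO DMSO). Under APAP at 12 h, c7b in WT ran from 2.15 to 5.29, c8b from -1.49 to -0.74 in WT and -0.89 to 0.044 in KO, and c3b.2 in KO from -1.23 to 0.43. At 24 h c7b ran from -0.42 to 1.19 in WT and 1.92 to 3.40 in KO, and c3b.2 in KO from -2.26 to -1.31. For KO against WT, c7b ran from -0.21 to 1.48 and c8b from -1.45 to -0.66 (DMSO 12 h), c3b.2 from -4.15 to -2.66, c7b from 1.36 to 4.35 and c8b from -0.82 to 0.062 (APAP 12 h), and c7b from 1.99 to 4.46 (APAP 24 h). Between the times c8b ran from 0.18 to 0.97 (WT DMSO) and -2.42 to -1.52 (KO APAP), c7b from -3.42 to 0.40 (WT APAP), 1.34 to 2.75 (KO DMSO) and -1.99 to -0.32 (KO APAP), and c3b.2 from -1.29 to 0.56 (KO APAP). For the difference of responses, c3b.2 ran from -1.32 to 0.37, c7b from 0.37 to 3.52 and c8b from 0.31 to 1.301 at 12 h, and c7b from 1.06 to 3.53 at 24 h. The cause was not tested. Genes with few counts, such as c4, are limited by depth.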

Other observations

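Other plasma proteins of the acute phase, the hepatic answer to inflammation in which complement genes also take part in mammals, were counted beside complement. Of 19 tested acute phase genes, edgeR called none in WT at 24 h (3 at an unadjusted p under 0.05) and 2 lower in KO at 24 h, itih3a.1 and serpina1l. Their medians were -0.49 and -0.28, where the 38 complement genes had -1.19 and -1.26. The difference between the lists was not tested.

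Among 27 tested genes of hepatocyte transcription factors and interleukin-6 signalling, edgeR called none under APAP in WT at 12 h or 24 h (5 and 1 at an unadjusted p under 0.05). In KO 2 were called higher at 12 h, foxa3 and CEBPB, and 1 lower at 24 h, FOXA2. Macrophage markers (9 tested) and neutrophil markers (4 tested) had no call under APAP in any of the 4 comparisons. Over the 8 groups the summed level of neutrophil markers ran from 0 to 23.2 CPM. That of macrophage markers ran from 56.5 to 82.7 CPM in WT DMSO 24 h and 71.0 to 78.7 in WT APAP 24 h, and from 67.2 to 90.2 in KO DMSO 24 h and 96.5 to 211 in KO APAP 24 h, where the groups did not overlap. In KO at 24 h the median log2 fold change of the 9 tested macrophage markers was 0.17, with 4 of them below 0. At 12 h the summed macrophage levels of the treatments overlapped in both genotypes.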
